A study of Mus musculus with 25 samples.

Results

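Untreated macrophages grown from bone marrow were compared gene by gene with macrophages sorted from injured muscle, to place the cultured cells among the muscle populations. The comparison used 13 of the 25 samples of a mouse RNA sequencing study: 3 libraries of untreated bone marrow-derived macrophages (BMDM) and the 10 samples behind 4 columns of muscle macrophages. All groups came from male C57BL/6J mice labelled as 2 to 4 months old, with no other genotype given. The BMDM were grown from the marrow of mice aged 8 to 10 weeks for 7 days in 10 ng/ml M-CSF, the growth factor that drives macrophage development, and were then replated for 24 h without it. They are the controls of a 4 h exposure to 10 nM resolvin D2 (RvD2), a mediator derived from an omega-3 fatty acid, and no sort is described for them. The muscle macrophages came from the tibialis anterior after an injection of 50 µl of cardiotoxin, a venom peptide that destroys muscle fibres. The muscle was dissociated for 1 h in collagenase, CD45+ leukocytes were held on magnetic beads, and cells were sorted by flow cytometry as Ly6Chigh F4/80low (3 samples at day 2, 2 at day 4) or Ly6Clow F4/80high (3 samples at day 2, 2 at day 4). Culture, tissue, sort and table thus all differ between the cultured and the muscle cells and cannot be told apart.

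Macrophages in a muscle wound descend largely from blood monocytes that arrive with high Ly6C, carry an inflammatory programme, and lose Ly6C as they mature and take up the debris of dead fibres. Macrophages of bone marrow cultures reach maturity under M-CSF alone, with no wound and no dying muscle. Signals that such cells respond to in tissue include interferons, which act through STAT and IRF factors, and stress and microbial products, which act through NF-kB and the immediate early genes.

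Values in the muscle table were the authors' group means, and the BMDM and muscle tables were normalised apart. For this reason no test was made, and cultured and muscle cells were compared by each gene's percentile rank within its table (0 lowest, 100 highest). Levels are shown beside the ranks, each on the scale of its own table, and statements of higher or lower between the tables refer to ranks. Genes were ranked where the mean of the 3 untreated columns or of the 4 muscle columns was at least 50 normalised counts, which left 12700 of 38087 genes: 10574 reached 50 in both means, 1727 in the cultured mean alone and 399 in the muscle mean alone. A gene that reached the minimum through 1 side alone entered because it was high there, so counts and medians over the compared members of a list lean toward that side and describe those members only. Among genes close to the minimum, the higher mean was 50.007 for Gbp4, which was included, and 49.902 for Tyw3, which was not. A gene was called higher or lower in cultured cells when the rank of its mean differed by at least 25 percentile points and all 3 BMDM columns lay outside all 4 muscle columns. Rank differences are given as cultured minus muscle with the SD over the 3 BMDM libraries, and no SD exists for the muscle side. Values for the muscle groups are always listed in the order Ly6Chigh day 2, Ly6Chigh day 4, Ly6Clow day 2, Ly6Clow day 4. Levels are the deposited log2 normalised counts, in which values under 1 normalised count were set to 0. A rank is not corrected for gene length, so ranks serve to compare a gene with itself. Ranks also tighten toward the top of the scale, where several-fold differences in level can be under 1 point.

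The defining macrophage genes ranked high in the cultured cells, though not all of them overlapped the muscle groups. Csf1r, the receptor for M-CSF, stood at log2 14.08, 14.26 and 14.38 in the 3 BMDM libraries and at 14.31, 14.82, 13.86 and 15.16 in muscle, so the ranges overlapped near the top of both tables (ranks 99.7 and 99.75). Emr1, which encodes the sorting antigen F4/80, had rank 98.8 in cultured and 99.5 in muscle cells. Cd68, a lysosomal membrane protein of macrophages, had rank 99.4 against 99.7, and Sfpi1, the gene of the lineage factor PU.1, 94.9 against 96.9. Lyz2, a lysozyme gene, had 99.94 against 99.97. Itgam, an integrin chain, had 95.6 against 99.6, at log2 11.53, 11.61 and 11.95 in BMDM and 14.67, 13.51, 14.08 and 13.12 in muscle. The wider gaps in rank among these markers were at Mertk, a receptor for dying cells (78.6 against 90.5), and Fcgr1, the high-affinity IgG receptor (78.4 against 98.4). In Itgam, Lyz2, Sfpi1 and Fcgr1 every library ranked below every muscle group, as in 30.8% of all genes compared.

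Markers of other cells were present in both kinds of sample, and their sums are given on the scale of each table. The 14 fibroblast markers summed to log2 16.56, 16.31 and 16.42 in the BMDM libraries and to 8.73, 14.97, 7.22 and 11.47 in muscle. Of these markers, 11 entered the ranking, 9 were called higher in cultured cells and none (0) lower, and 5 of the 11 reached the minimum in culture alone, while the matrix genes Dcn and Lum and the surface marker Thy1 were under the minimum level. For this list and the neutrophil list, the shares over all genes compared were 6.32% higher and 5.56% lower. The 14 neutrophil markers summed to log2 12.35, 12.99 and 14.05 in BMDM against 11.24 to 11.58 in muscle macrophages and 18.71 in neutrophils of the same study. Of 9 that entered the ranking, 6 were called higher and Csf3r lower, with a median of 59.6 points (49.5 without library 3). As 6 of the 9 reached the minimum in culture alone and 3 in both means, this median is largely set by the filter. Their highest sum among BMDM was in BMDM library 3, and Ly6g, which defines mouse neutrophils, was at 0.10, 0.30 and 3.39 in BMDM and at 0 in all 4 muscle columns. Of the 16 skeletal muscle and myoblast markers, 12 were at 0 in all 3 BMDM libraries. The T and NK cell markers summed to 6.75, 6.89 and 7.22 in BMDM and to 6.23, 11.26, 5.24 and 10.33 in muscle, so that both day 4 populations carried most of this signal. Endothelial markers summed to 9.78 to 10.05 in BMDM and 8.98 to 10.64 in muscle, and osteoclast markers to 12.28 to 12.53 and 11.86 to 13.09. Eosinophil and mast cell markers summed to 7.46 to 7.99 and to 5.09 to 6.86, with 1 of 11 genes reaching the level minimum, and the erythroid and platelet list to 12.89 to 13.11 and 9.89 to 13.57. B cell markers summed to log2 8.13 to 8.80 in BMDM and 9.96 to 12.05 in muscle, and dendritic cell markers to 10.42 to 10.90 and 11.19 to 12.88. The 3 B cell and 2 dendritic cell markers that entered the ranking all ranked below every muscle column, as did 30.8% of all genes compared. In bulk RNA, fewer cells of a type and less RNA per cell cannot be told apart, and the part these cells played in the results that follow was not tested.

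**Figure D1:**
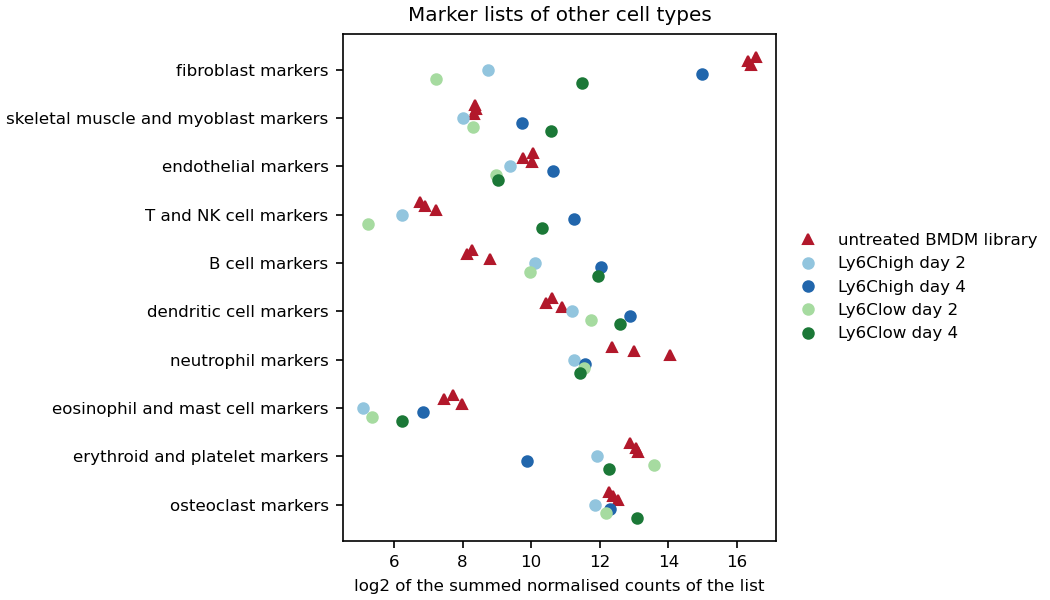
Log2 of the summed normalised counts of each marker list (x axis) for 3 untreated BMDM libraries (triangles) and 4 muscle macrophage groups (circles, each an authors' mean). Fibroblast markers lie at 16.31 to 16.56 in BMDM and at 7.22 to 14.97 in muscle, and neutrophil markers reach 14.05 in BMDM library 3.

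Most genes held a similar place in cultured and muscle macrophages. The median absolute rank difference was 7.60 points, 8 in 10 genes lay between -17.72 and 17.88 points, and BMDM libraries differed from each other by 1.38 to 1.82 points at the median. By the call rule 803 genes (6.32%) were higher and 706 (5.56%) lower in cultured cells, together 11.9%. Without the size condition, 29.1% of genes had all BMDM ranks above and 30.8% all below the 4 muscle ranks, together 59.8%. Counts within the lists below are to be read beside these shares. The called genes were 53.2% higher by rank, and 63.1% higher (965 against 565 genes) when centred log2 differences of at least 2 were used in place of ranks. Leaving out the genes of all 10 marker lists left 789 higher and 699 lower.

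**Figure D2:**
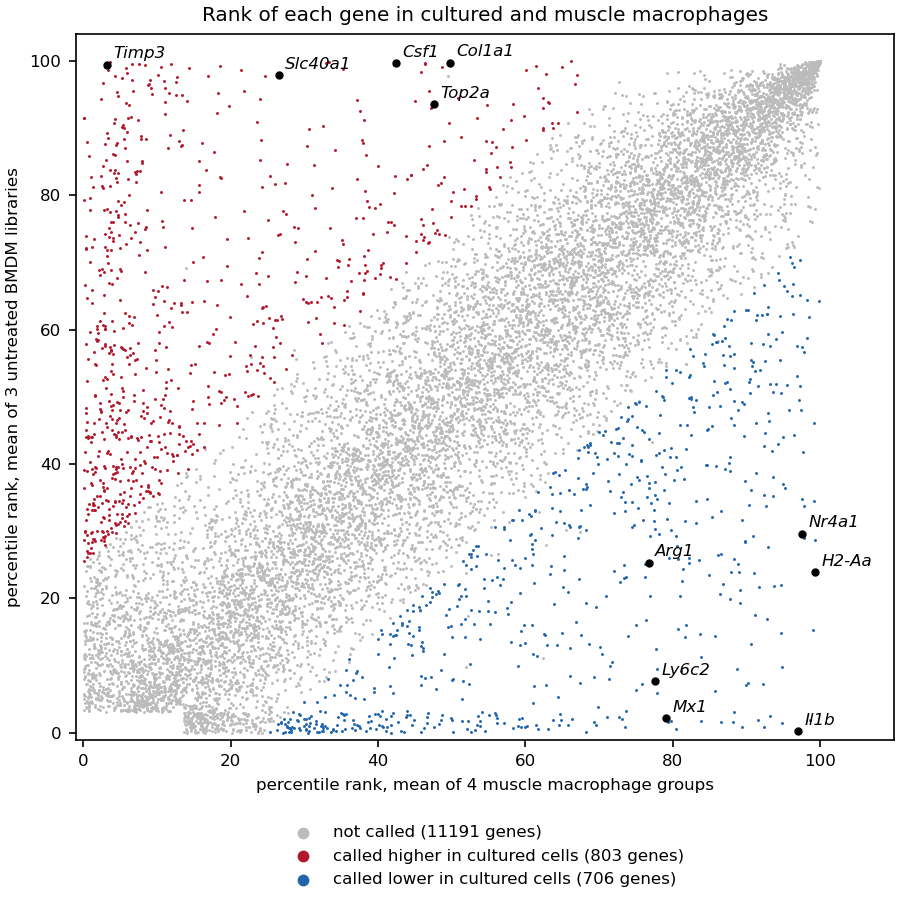
Percentile rank of each of 12700 genes in the mean of 4 muscle macrophage groups (x axis) and in the mean of 3 untreated BMDM libraries (y axis), with called genes in colour and some described genes named. The 803 genes called higher spread along the upper left, with Timp3 at its corner, and the 706 called lower along the lower right, with Il1b at its corner.

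Of the 4 muscle populations, the cultured cells ranked closest to Ly6Clow macrophages of day 2. Spearman's rho across genes was 0.815 with this group, 0.770 with Ly6Clow day 4, 0.759 with Ly6Chigh day 2 and 0.758 with Ly6Chigh day 4, while neutrophils gave 0.589. The order of the first place was the same in each BMDM library: rho with Ly6Clow day 2 was 0.800, 0.817 and 0.825, and the next group in each library, Ly6Clow day 4, gave 0.751, 0.770 and 0.783. The other 3 groups gave 0.758 to 0.770 with the mean, and Ly6Chigh day 2 and day 4 changed places between libraries. These points share genes, libraries and a table, genes are not replicates, and no p was computed. The muscle groups resembled each other far more (rho 0.918 to 0.965) than any resembled the cultured cells, and RvD2-treated BMDM gave 0.994 with the untreated mean.

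**Figure D3:**
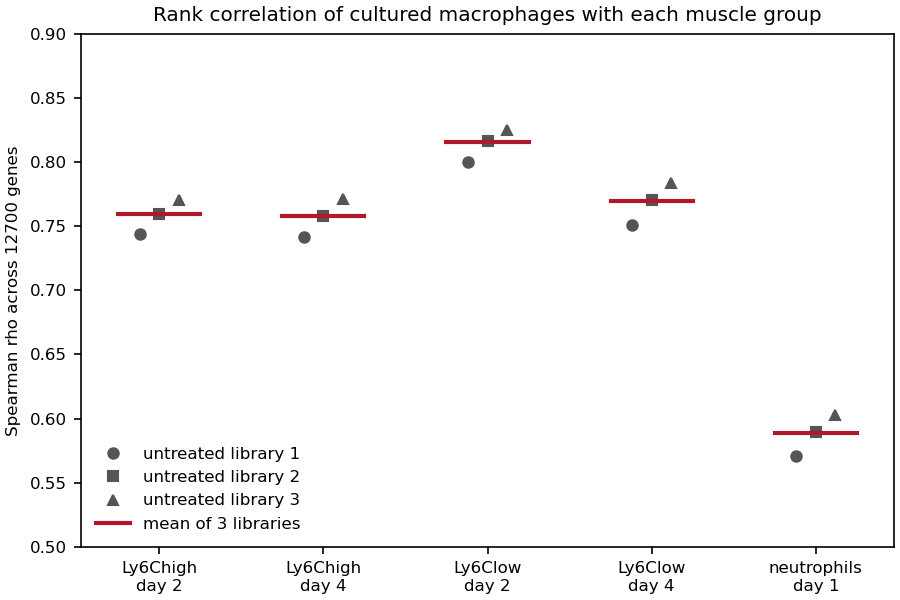
Spearman rho across 12700 genes (y axis, starting at 0.5) between each untreated BMDM library (symbols) or their mean (bars) and each muscle group or neutrophils (x axis). Ly6Clow day 2 cells have the highest value in every library (0.800 to 0.825).

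The same group came first when genes were counted. Ly6Clow day 2 held the nearest of the 4 muscle ranks for 34.3% of genes, against 21.5 to 22.2% for each other group. Among 983 genes whose muscle ranks spanned at least 25 points, its share was 46.4%, against 20.7% for Ly6Clow day 4, 17.5% for Ly6Chigh day 4 and 15.5% for Ly6Chigh day 2. Of the 100 genes with the widest span of muscle ranks, 44 were nearest to Ly6Clow day 2 and 27 to Ly6Chigh day 4. The genes of the first kind with the widest span included Plac8, a gene of monocytes, at 4.74, 4.63 and 5.66 in BMDM and 12.52, 12.96, 6.46 and 8.97 in muscle, and Ciita, the master activator of MHC class II, described below. The 8 genes with the widest span that were placed farthest from Ly6Clow day 2 were matrix genes: Col3a1, Col1a1, Postn, Col1a2, Bgn, Sparc, Col6a3 and Col5a1. All but Col6a3 belong to the fibroblast marker list, whose sum in muscle was highest in Ly6Chigh day 4. Col1a1 had ranks of 99.6 to 99.7 in BMDM and of 21.2, 98.6, 8.66 and 65.5 in muscle, so only Ly6Chigh day 4 came near the cultured cells. Among 27 pathway lists, Ly6Clow day 2 was the nearest group by the median absolute rank difference for 19, Ly6Chigh day 4 for 3, Ly6Clow day 4 for 3 and Ly6Chigh day 2 for 2. The margin was wide for monocyte genes (11.0 points from Ly6Clow day 2 against 25.3 to 58.7 from the others) and for interferon genes (22.1 against 46.4 to 62.8). It was narrow for cell cycle genes, at 24.8 against 25.5 points for Ly6Clow day 4, and for several other lists. Growth factor receptors and lineage factors had 6.87 against 7.56 points for Ly6Chigh day 2, and engulfment genes 2.34 against 2.90 for Ly6Chigh day 2. Some genes stand in more than 1 list, so the lists are not separate counts.

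The 12 genes with the largest rank differences toward the cultured cells included several that encode matrix proteins or act on matrix. All 12 had muscle means under the minimum (log2 0 to 4.56), so each entered the ranking through culture alone, where it is high. Timp3, an inhibitor of matrix proteases that is itself bound to matrix (chr10:86300372-86349506, GRCm38), stood at log2 13.88, 13.56 and 13.43 in BMDM and at 1.60, 5.33, 0.40 and 2.16 in muscle, a rank difference of 96.2 points (SD 0.15, n = 3). Ctgf, a secreted matricellular protein (chr10:24595442-24598683), stood at 14.65, 14.59 and 14.43 against 1.18, 6.23, 0.40 and 2.69. In both genes the BMDM libraries were close together, and Ly6Chigh day 4 was the highest of the muscle groups. Also among the 12 largest were Tnc and Col12a1, which encode matrix proteins, Lox, the enzyme that crosslinks collagen, Ltbp2, Aebp1, Cyr61, Fat1, the cytochrome P450 Cyp1b1 and the serine protease Prss23, with differences of 91.9 to 95.2 points. In each of these genes too Ly6Chigh day 4 was the highest muscle column, as it was for the fibroblast marker list. The last of the 12 was Ngp, a neutrophil granule protein, at 10.29, 10.91 and 12.08 in BMDM and listed at 0 in all 4 muscle columns. It was at 5.52 in the day 1 neutrophils of the same study, on the scale of the muscle table.

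**Figure D4:**
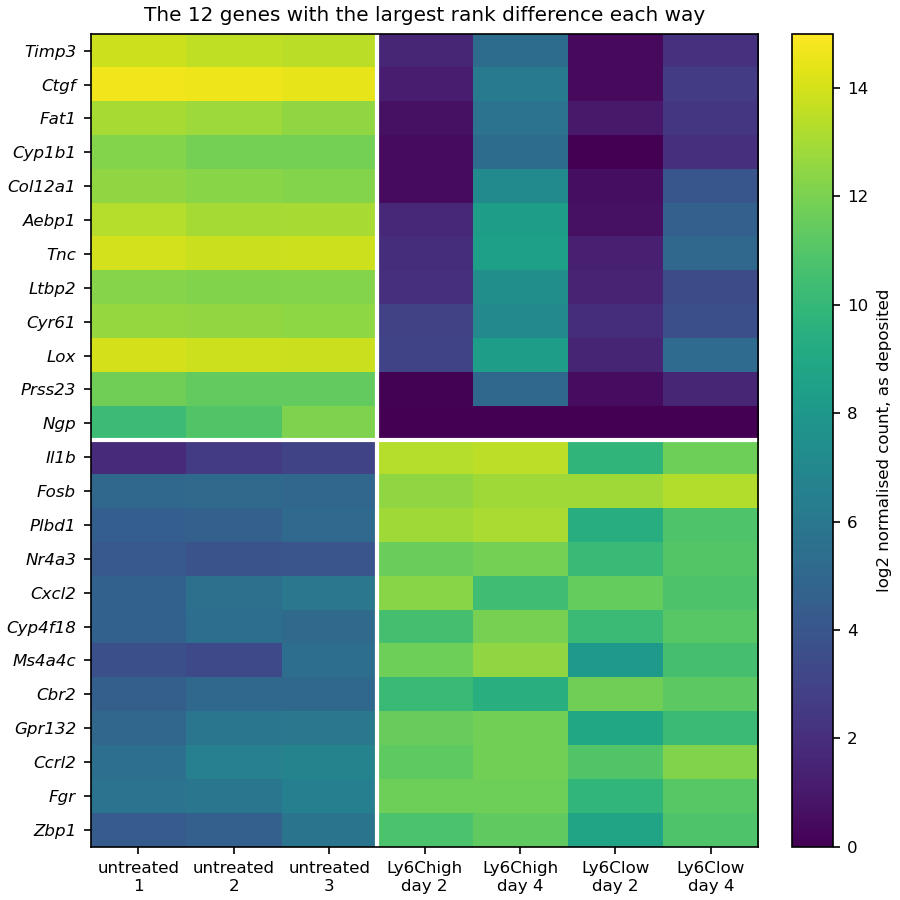
Deposited log2 normalised counts (colour, 0 to 15) of the 12 genes with the largest rank difference in each direction (rows) in 3 untreated BMDM libraries and 4 muscle groups (columns). The upper 12 are bright in BMDM, and 11 of them are brightest among muscle groups in Ly6Chigh day 4. The lower 12 are bright in all 4 muscle groups.

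Of 18 matrix proteases and inhibitors compared, 6 were called higher and 1 lower, with a median of 0.75 points against -0.51 over all genes. Shares over all genes were 6.32% higher and 5.56% lower, and 2 of the 18 reached the minimum in culture alone. Besides Timp3, Serpinb2, an inhibitor of plasminogen activators, stood at 10.50, 10.53 and 10.15 against 5.19, 5.08, 4.71 and 3.44 (75.9 points, SD 3.1, n = 3). Mmp2, a gelatinase, differed by 67.2 points, and its muscle values of 3.88, 8.64, 3.64 and 7.40 followed the 2 day 4 groups. Timp1 differed by 63.5 points, with muscle values of 9.22, 6.52, 7.75 and 5.85 that were highest at day 2, unlike those of the fibroblast list. The gene called lower was Mmp19, at 8.96 to 9.20 in BMDM and 10.75 to 12.76 in muscle. Adhesion and cytoskeleton genes were mostly level (median 0.37, 4 of 31 higher and 3 lower). Fscn1, which bundles actin in cell protrusions, had the widest gap among them, at 11.88, 11.75 and 11.73 against 4.08, 7.47, 3.15 and 6.48, and Itgax, the integrin chain CD11c, the opposite one (6.36 to 6.63 against 9.36 to 12.19).

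Growth factors and receptors outside the matrix lists also stood apart. Csf1, which encodes M-CSF itself, was at 14.20, 14.14 and 14.00 in cells that had been without added M-CSF for 24 h, and at 7.64, 8.44, 7.11 and 7.91 in muscle, a difference of 57.2 points (SD 0.06, n = 3). Its ranks were 99.6 to 99.7 in BMDM and 31.5 to 53.8 in muscle. Cxcl14, a chemokine, was at 10.52 to 10.67 against 4.33 to 6.84, and was the one of 18 chemokines called higher. Igf1, a growth factor for muscle precursors, was at 12.45, 12.67 and 12.59 against 7.46, 9.75, 10.80 and 11.50, ranked above every muscle group but with a difference of 18.9 points that did not reach the call. Of the 21 repair-associated genes compared, Pdgfc, Pdgfb and Mmp12 were called higher, and Clec10a, Gdf3, Il10 and Cd163 lower. Arg1, the arginine-consuming enzyme of alternatively activated macrophages, was at 7.67, 7.04 and 7.23 against 11.27, 6.97, 12.36 and 8.23. It was not called, since Ly6Chigh day 4 overlapped the cultured libraries in rank, and both day 2 groups lay far above them. Spp1 and Lgals3 were level within 0.05 points.

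Genes of cell division ranked higher in culture. Of 40 cell cycle genes, 25 were called higher and none (0) lower, with a median difference of 31.2 points (29.7 to 33.8 in single libraries). Shares over all genes compared were 6.32% higher and 5.56% lower. The median rank was 62.7 in cultured and 23.2 in muscle cells, and 14 of the 40 reached the minimum level in culture alone. Prc1, which organises the spindle midzone, was at 10.42, 10.20 and 10.33 against 4.18, 6.16, 6.55 and 7.42 (63.8 points, SD 1.9, n = 3). Rrm2, the ribonucleotide reductase subunit made in S phase, was at 10.69, 10.43 and 10.42 against 4.28, 6.82, 7.67 and 7.40. Top2a, which untangles DNA for mitosis, was at 11.57, 11.27 and 11.19 against 5.66, 8.48, 8.96 and 9.16. In all 3 genes every library ranked above every muscle group, as in 29.1% of all genes compared, and Ly6Chigh day 2 was the lowest group. Cdt1, which licenses replication origins, was nearly level (-3.30 points).

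Promoters were searched for short motifs in the 250 bases before the first listed RefSeq start, on both strands. The CCAAT box, CCAAT, is bound by the factor NF-Y, and the cell cycle homology region (CHR), TTTGAA, by the DREAM and MuvB complexes that time mitotic genes. Of the 25 cell cycle genes called higher, 19 had an entry, and 16 of these (84.2%) held a CCAAT box, against 34.5% of all 27025 promoters. CHR was in 5 of 19 (26.3%), against 16.3% of all. The list was made of known cell cycle genes, so these shares describe the list and not its rank difference. The motif CRE, TGACGTCA, and the CArG box were also searched in the immediate early genes called lower. Each was in 1 of 13 promoters (7.69%), against 1.62% and 1.4% of all. The windows of Cdc20, an activator of the anaphase-promoting complex (chr4:118437344-118437593, minus strand), and Cdk1, the mitotic kinase (chr10:69352913-69353162, minus strand), are shown because they hold both motifs, printed 5′ to 3′ from RefSeq on GRCm38.p6 with matches to either motif in capitals (reversed on the other strand, as ATTGG).
Cdc20: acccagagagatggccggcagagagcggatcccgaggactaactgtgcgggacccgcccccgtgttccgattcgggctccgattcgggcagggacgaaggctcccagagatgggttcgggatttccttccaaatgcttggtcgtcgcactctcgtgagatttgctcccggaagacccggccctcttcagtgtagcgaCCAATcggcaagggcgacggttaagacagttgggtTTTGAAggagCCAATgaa
Cdk1: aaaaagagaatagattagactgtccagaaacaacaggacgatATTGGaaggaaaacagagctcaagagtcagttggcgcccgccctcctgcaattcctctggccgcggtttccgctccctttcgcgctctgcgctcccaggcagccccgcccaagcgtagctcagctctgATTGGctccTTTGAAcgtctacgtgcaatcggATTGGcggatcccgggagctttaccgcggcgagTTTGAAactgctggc
Cdc20 itself stood at 9.16, 9.09 and 9.29 in BMDM against 3.73, 5.47, 5.56 and 6.79, and Cdk1 at 10.10, 9.87 and 9.89 against 4.53, 6.61, 7.51 and 7.85. A match describes the letters in this window and is not a shown binding site.

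Interferon response genes ranked lower in cultured cells as a block. Of 27 compared, 24 were called lower and none (0) higher, with a median of -51.0 points. All 27 ranked below every muscle group in every library. Over all genes, 5.56% were called lower and 30.8% ranked below every muscle column. Of the 27, 16 reached the minimum level in both means and 11 in muscle alone. The size varied with the library, from -54.8 to -39.8 points, and library 3 had the highest value for most of the named members. It was -52.8 points without library 3. Mx1, an antiviral GTPase, stood at 4.78, 4.52 and 6.47 in BMDM and at 10.09, 11.04, 8.20 and 10.12 in muscle (-76.8 points, SD 6.5, n = 3). Ifit3, which belongs to a family that binds viral RNA, was at 5.87, 5.16 and 7.52 against 9.42, 11.33, 8.31 and 11.00 (-71.8 points, SD 14, n = 3). Irf7, the factor that amplifies the interferon loop, was at 7.42, 7.17 and 8.99 against 11.86, 13.77, 10.19 and 13.18. In each, Ly6Clow day 2 was the lowest muscle group and the nearest to culture, and BMDM library 3 was the nearest to muscle. Ifi44 and Iigp1 (both about -14 points) were close to the cultured cells at day 2 and high at day 4, with Ifi44 at 3.97, 8.47, 2.23 and 8.42 in muscle and 3.60, 3.91 and 5.36 in BMDM.

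The core of the interferon-stimulated response element (ISRE), searched as GAAANNGAAA, was in 13 of the 20 called members with an entry (65%), against 3.04% of all promoters. It was in none (0) of the 19 cell cycle promoters. The list was made of genes known to answer interferon, so this share describes the list and not its rank difference. The windows of Ifit3 (chr19:34583279-34583528, plus strand), Rsad2 (chr12:26456453-26456702, minus strand) and Isg15 (chr4:156200819-156201068, minus strand) show the element in both directions, and in Isg15 as overlapping copies, with capitals for the matches.
Ifit3: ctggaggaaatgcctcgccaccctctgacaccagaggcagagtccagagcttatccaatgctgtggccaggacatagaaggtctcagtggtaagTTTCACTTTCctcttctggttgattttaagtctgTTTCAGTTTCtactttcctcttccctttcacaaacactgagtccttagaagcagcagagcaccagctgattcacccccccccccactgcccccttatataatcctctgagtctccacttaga
Rsad2: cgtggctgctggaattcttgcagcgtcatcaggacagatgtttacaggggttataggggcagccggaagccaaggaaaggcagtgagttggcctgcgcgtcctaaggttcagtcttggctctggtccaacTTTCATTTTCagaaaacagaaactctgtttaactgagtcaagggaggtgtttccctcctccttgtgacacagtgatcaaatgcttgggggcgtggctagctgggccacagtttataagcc
Isg15: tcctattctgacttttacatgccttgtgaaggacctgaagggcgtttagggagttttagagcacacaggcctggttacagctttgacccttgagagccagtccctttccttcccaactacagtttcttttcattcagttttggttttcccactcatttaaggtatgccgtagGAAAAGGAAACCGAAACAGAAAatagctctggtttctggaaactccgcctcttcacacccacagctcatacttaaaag
Rsad2, the antiviral enzyme viperin, stood at 6.53, 6.73 and 7.87 in BMDM against 10.76, 11.55, 9.47 and 11.01, and Isg15, a ubiquitin-like protein, at 6.10, 5.76 and 6.74 against 10.20, 10.72, 8.30 and 9.90.

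Antigen presentation by MHC class II was the pathway with the lowest median, at -55.1 points (-55.5 to -53.7 in single libraries). Of 10 genes compared, 8 were called lower and all 10 ranked below every muscle group, against 5.56% and 30.8% of all genes. Of the 10, 2 reached the minimum in muscle alone. H2-Eb1, a class II beta chain, was at 6.60, 6.56 and 6.82 in BMDM and at 12.59, 15.76, 10.34 and 14.10 in muscle (-83.7 points, SD 1.7, n = 3). H2-Aa, the alpha chain of the other class II molecule, was at 7.18, 7.32 and 7.20 against 13.17, 16.05, 10.59 and 14.52. Ciita, which switches these genes on, was at 2.60, 2.15 and 0.50 against 8.16, 10.83, 3.76 and 10.09. The 3 genes shared an order over the muscle groups, with Ly6Chigh day 4 highest and Ly6Clow day 2 lowest. The 2 members that were not called were Ctss, the protease that trims the invariant chain, which was near the top in both (-0.35 points), and Ifi30 (-20.3 points). Dendritic cell and B cell markers, whose cells also carry class II, had the sums and ranks given above, and their part in this difference was not tested.

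Genes of acute activation ranked lower in culture than in muscle, with median ranks of 63.0 and 95.5 for the immediate early list. Of 28 immediate early genes, 15 were called lower and 2 higher, with a median of -26.6 points. Of the same 28, 26 ranked below every muscle group and 3 reached the minimum in muscle alone. Among all genes, 5.56% were called lower, 6.32% higher, and 30.8% ranked below every muscle column. Fosb, an AP-1 subunit (chr7:19302696-19310051), was at 5.04, 5.18 and 4.96 in BMDM and at 12.49, 12.85, 12.88 and 13.25 in muscle (-96.7 points, SD 0.38, n = 3). Nr4a3, an orphan nuclear receptor, was at 4.19, 3.83 and 3.94 against 11.57, 11.88, 10.10 and 10.96. All 4 muscle groups were high for both genes, whatever the day or the Ly6C gate. The muscle cells had gone through 1 h of warm dissociation, bead isolation and a sort before lysis and the cultured cells had not, and these steps cannot be told apart from the tissue here. The 2 higher genes were Fosl1, another AP-1 subunit (9.71, 9.46 and 9.26 against 7.53, 5.46, 5.60 and 3.99), and Myc (10.23, 10.15 and 9.96 against 8.38, 8.73, 8.01 and 7.66).

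NF-kB target genes followed the same direction, with 16 of 23 called lower, none (0) higher and a median of -37.3 points, with 2 of the 23 at the minimum in muscle alone. For this list and the cytokines below, the shares over all genes were 5.56% lower and 6.32% higher. Ccrl2, an atypical receptor that holds chemerin, was at 5.46, 6.52 and 6.69 against 11.28, 11.82, 10.94 and 12.15. Cd83 differed by -68.7 points and Nfkbiz by -67.9, while Tnfaip2 and Bcl2a1b were within 3 points of level. Bcl2a1b varied among the muscle groups, with ranks from 59.0 to 85.8 there. Of 12 inflammatory cytokines compared, 8 were called lower and Csf1 alone higher, with 5 of the 12 at the minimum in muscle alone, and 7 of the 19 listed, among them Il6, Il12a, Il12b and Nos2, were under the minimum level in both tables. Il1b, the pyrogenic cytokine cleaved by the inflammasome (chr2:129364570-129371139), had the largest rank difference of all named genes toward muscle. It stood at 1.87, 2.63 and 3.07 in BMDM and at 13.32, 13.49, 9.79 and 11.68 in muscle (-96.8 points, SD 0.09, n = 3), near the floor of one table and near the top of the other. Osm, which signals through gp130, was at 6.43, 6.67 and 6.78 against 12.65, 11.58, 10.88 and 10.99, and Tnf at 7.28, 7.55 and 7.58 against 10.45, 9.92, 9.81 and 9.69.

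Of 18 chemokines compared, 9 were called lower, against 5.56% of all genes, and 7 of the 18 reached the minimum in muscle alone. Cxcl2, which draws neutrophils, was at 4.65, 5.52 and 5.94 against 12.33, 10.42, 11.43 and 10.80. Ccl7 (-70.0 points) and Ccl2 (-55.5 points), which draw monocytes through Ccr2, and Ccl4 (-65.7 points) and Ccl3 (-61.3 points), inflammatory chemokines, were also called. Ppbp and Pf4, chemokines best known from platelets, were within 3 points of the muscle mean, but the muscle groups differed. Ppbp had rank 22.0 in culture and 59.4, 3.78, 45.1 and 5.82 in muscle. Pf4 had 98.8 in culture and 94.9, 77.0, 99.2 and 97.4 in muscle.

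The 12 largest differences toward muscle also held Plbd1, a lysosomal lipase-like protein (4.45, 4.58 and 5.11 against 12.89, 13.09, 9.35 and 10.88), Cbr2, a carbonyl reductase, Fgr, a Src-family kinase, and Zbp1, a sensor of Z-form nucleic acid. Cbr2 was the one of these 4 that was highest in the Ly6Clow groups, at 4.56, 4.98 and 5.06 against 10.14, 9.39, 11.73 and 11.20. Of the 12, all but Ccrl2 and Fgr had cultured means under the minimum and entered the ranking through muscle alone.

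**Figure D5:**
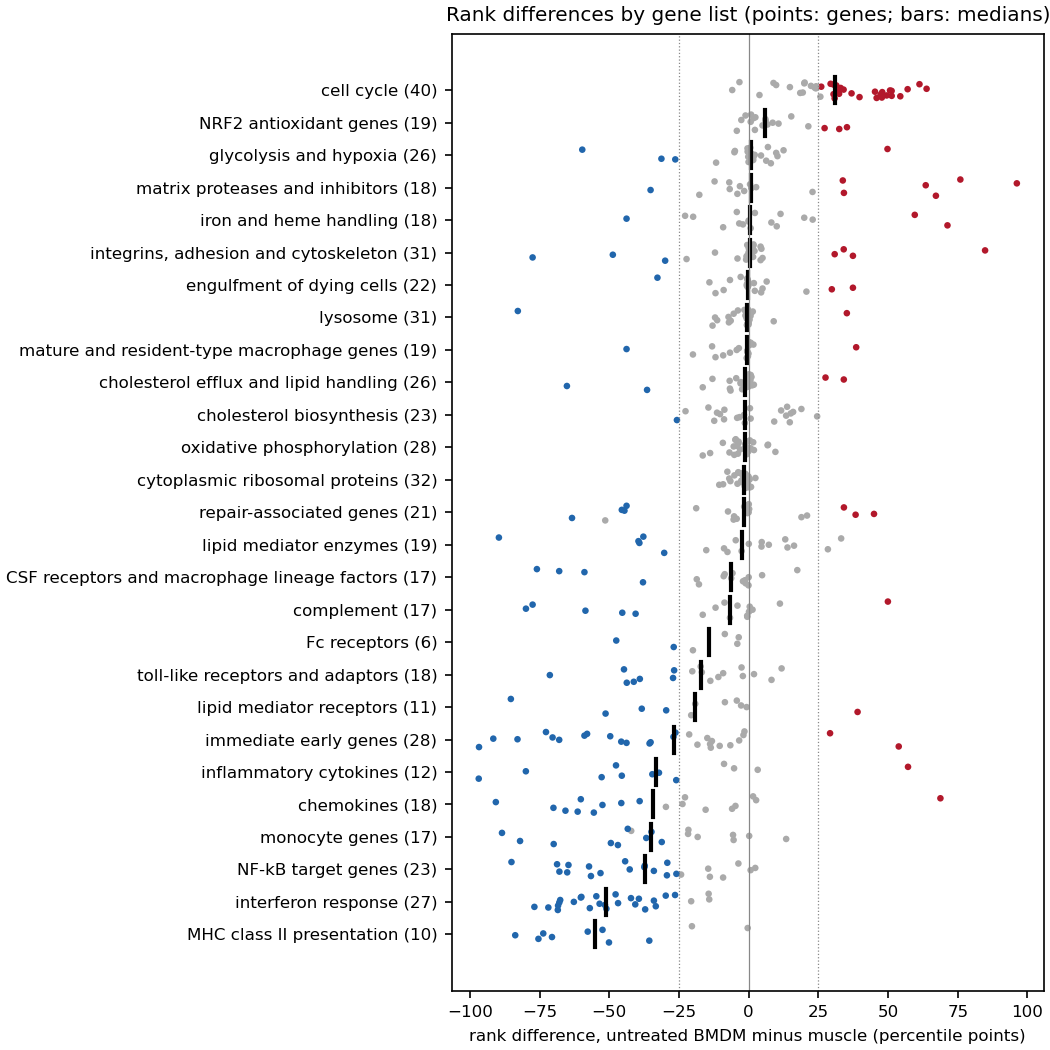
Rank difference of each compared gene, untreated BMDM minus muscle (x axis, percentile points), for 27 pathway lists with the number compared in brackets (y axis). Red points are genes called higher, blue points genes called lower, grey points not called, black bars list medians, and dotted lines mark 25 points either way. The medians run from -55.1 for MHC class II presentation to 31.2 for the cell cycle.

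Genes of the monocyte stage separated the cultured cells from the Ly6Chigh groups in particular. Of 17 compared, 9 were called lower and none (0) higher, with a median of -34.9 points, and 7 of the 17 reached the minimum in muscle alone. Shares over all genes were 5.56% lower and 6.32% higher. The median was -24.1 points without the Ly6Chigh day 4 column. Ly6c2, one of the genes behind the Ly6C sort, stood at 5.42, 5.78 and 6.96 in BMDM and at 11.86, 13.52, 7.12 and 6.55 in muscle. Its rank in every BMDM library (2.85, 5.15 and 19.6) was below every muscle column (95.6, 99.3, 31.6 and 22.8). Since the sort used Ly6C, its difference among muscle groups is part of their definition. Ccr2, the receptor that brings monocytes into tissue, was at 8.68, 8.25 and 8.74 against 13.39, 13.65, 10.41 and 11.50. Ms4a4c, a membrane protein of monocytes, was at 3.68, 3.34 and 5.40 against 11.70, 12.49, 8.10 and 10.60. Cx3cr1, the fractalkine receptor, belongs to another list and was highest in Ly6Clow day 4, at 6.31, 6.92 and 7.05 against 10.45, 12.03, 10.11 and 12.19. Fn1, fibronectin, was in the list and level with the muscle mean by rank (0.20 points). Its levels were 14.99, 14.95 and 14.82 in BMDM and 16.08, 13.34, 15.15 and 11.87 in muscle.

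Genes of the lysosome and of engulfment were mostly not called by rank, while those of complement leaned lower in culture. The first 2 of these lists lie near the top of the scale, where ranks separate little, and the medians of centred log2 differences (each table centred on its own median gene) were -0.78 for lysosome, -0.64 for engulfment and -1.05 for complement. Of 31 lysosomal genes, 1 was called higher, Atp6v0d2, a proton pump subunit, and 1 lower, Acp5, the tartrate-resistant phosphatase, and the median was -0.45 points (median ranks 93.5 and 98.5). In 13 of the 31 every BMDM library ranked below every muscle column, and in 4 above, against 30.8% and 29.1% of all genes. Acp5 was at 5.84, 5.61 and 6.56 against 9.99, 10.88, 10.16 and 12.12. Of 22 engulfment genes, Itgb3 and Mfge8, whose products bridge and bind dying cells, were called higher and Cd300lf lower. No gene (0) of 28 for oxidative phosphorylation or of 32 ribosomal proteins was called, with medians of -1.39 and -1.57 points. Most of the 26 genes of cholesterol efflux and lipid handling were level, with Scd1 and Fasn, which make fatty acids, called higher and Apoc2 and Nr1h3, the oxysterol receptor LXR alpha, lower. Apoe, which carries cholesterol out of macrophages, was at 16.10, 16.25 and 16.41 against 15.95, 17.66, 17.51 and 18.80, a rank difference of only -0.02 points. C1qa, a chain of the first complement component, was at 11.22, 11.07 and 11.47 against 12.13, 14.23, 13.70 and 15.19, ranked below every muscle group and not called (-6.69 points). Among 17 complement genes, Cfb, C4b, C3 and C2, which feed the convertases, and Itgax were called lower, and the inhibitor Serping1 higher. These were 5 lower and 1 higher of 17, against 5.56% and 6.32% of all genes. Of the 17, 10 ranked below every muscle column, against 30.8% of all genes. The median ranks were 54.4 and 90.7, and 3 of the 17 reached the minimum in muscle alone and 2 in culture alone.

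Energy and sterol lists lay near level. Of 26 genes of glycolysis and hypoxia (median 0.78 points), Adm, a vasodilator peptide, was called higher and Ndrg1, Pfkfb4 and Pfkfb3 lower. Of 23 genes of cholesterol biosynthesis (median -1.35 points, and -3.96 to 5.13 over the 3 libraries), Pmvk alone was called, and lower. Of 17 growth factor receptors and lineage factors (median -6.24 points), Cx3cr1, Nr4a1, Klf4 and Csf3r were called lower. Of 6 Fc receptor genes (median -14.3 points), Fcgr4 and Fcgr2b were called lower.

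Of 19 mature macrophage genes, 1 was called each way and the median was -0.53 points. The list lies at the top of the scale (median ranks 97.7 and 98.8), and its median centred log2 difference was -1.21, lower in culture. Cd5l, a secreted protein of tissue macrophages, was at 12.70, 12.80 and 12.97 against 6.50, 8.14, 9.91 and 10.46. Cd163, the scavenger receptor for haemoglobin, was at 5.41, 5.46 and 5.91 against 8.00, 6.58, 8.56 and 8.94. Mrc1, the mannose receptor, was not called (-4.28 points). The resident-type genes Timd4, Lyve1, Vsig4 and Marco were under the minimum level in both means. Iron genes were level at Ftl1 and Fth1, the ferritin chains, and far apart at Slc40a1, the iron exporter ferroportin, which was at 12.36, 12.36 and 12.49 against 4.80, 6.80, 5.58 and 9.78 (71.3 points, SD 0.12, n = 3). Of 19 antioxidant genes of the factor NRF2, Gclm, Nqo1 and Gclc were called higher and none (0) lower, with a median of 6.01 points. Of 18 toll-like receptor genes, 7 were called lower, against 5.56% of all genes. They were led by Tlr9, which senses DNA (6.50, 6.70 and 6.61 against 10.49, 11.58, 8.41 and 11.04).

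The lipid mediator genes were of interest because the study followed these mediators through muscle repair. Of 19 enzymes compared, 5 were called lower and none (0) higher, with a median of -2.53 points, against 5.56% and 6.32% of all genes called. Of the 19, 4 reached the minimum in muscle alone, Alox5 and Cyp4f18 among them, and 2 in culture alone. Alox5, the 5-lipoxygenase of leukotriene synthesis (chr6:116410077-116461178), was at 3.98, 4.22 and 5.54 in BMDM and at 6.91, 6.74, 7.54 and 7.23 in muscle (-30.3 points, SD 1.1, n = 3). Its partner Alox5ap was -7.60 points from level and was not called. Cyp4f18, which inactivates leukotriene B4, had the widest gap, at 4.68, 5.45 and 5.20 against 10.58, 11.95, 10.25 and 11.13. Alox15, the 12/15-lipoxygenase, was listed at 0, 0 and 0.50 against 3.52, 5.27, 4.83 and 4.23, under the minimum level in both. Ptgs1, the constitutive cyclooxygenase, was at 8.89 to 9.03 against 5.22, 7.19, 6.37 and 8.74. Its ranks (55.1 to 57.9) overlapped the muscle range, in which Ly6Clow day 4 had 59.8, so it was not called. Ptgs2, the inducible cyclooxygenase, was at 10.08, 10.88 and 10.47 against 12.59, 11.24, 10.91 and 10.58 (-8.83 points).

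Of 21 lipid mediator receptors listed, 11 reached the minimum level, and 4 were called lower and 1 higher, against 5.56% and 6.32% of all genes. Of the 11, 3 reached the minimum in muscle alone, Gpr132 among them, and 1 in culture alone, Lgr6. Gpr18, a proposed receptor of RvD2, was at 0, 1.41 and 0.50 in BMDM and at 3.60, 7.12, 0.54 and 4.95 in muscle. It was under the minimum level and highest in Ly6Chigh day 4, and low in both the cultured cells and Ly6Clow day 2. Gpr132, a receptor activated by acid and oxidised lipids, was at 4.93, 5.91 and 6.03 against 11.54, 11.78, 8.94 and 10.25. Cmklr1, the chemerin receptor, was at 8.24, 8.28 and 8.38 against 11.46, 11.36, 11.14 and 11.86. Lgr6, a receptor proposed for a maresin, was at 8.14, 8.08 and 8.09 in BMDM and listed at 0 in all 4 muscle groups.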

How the data were processed

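Poly-A RNA was sequenced after TruSeq library preparation, per the labels' protocols. Build mm10, TopHat2 2.0.7 and DESeq are named, without roles, per the submitters' processing notes. Which gene models were counted was not given in the sources used. Both deposited tables hold log2 normalised read counts, in which the authors set values below 1 count to 0, as read from the values. Each BMDM column is a library. In the muscle table each column is a group mean over 2 or 3 samples. As the kit marks no strand, values of overlapping genes and close paralogs are uncertain. Columns outside the series numbered 0. In the muscle table a date stands in 1 cell of the Ly6Chigh day 4 column and 1 of the Ly6Clow day 4 column, and both were treated as missing.

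The tables were joined by Ensembl identifier. Of 38087 identifiers, 36308 (95.3%) are in GENCODE M21, which supplied gene coordinates on GRCm38. Means were taken on the log2 scale, genes with a mean of 50 or more normalised counts in either were ranked within each column and mean, and percentile ranks were subtracted. A call needed 25 points and no overlap of columns. No test was made, because the tables were normalised apart and the muscle columns have no replicates. The ranking script was tested on simulated data. Python 3.11.15, numpy 2.4.6, pandas 2.3.3, scipy 1.17.1 and matplotlib 3.10.9 were used. From the spacing of low values, gene reads were estimated at 10.1, 14.3 and 9.05 M (mega) in BMDM libraries 1, 2 and 3. Depth is unknown for the group means. Summed normalised counts were 12.4 to 12.8 M in BMDM and 11.9 to 12.8 M in the muscle macrophage groups. Nothing in the labels says that libraries came from separate animals or cultures, so the SD over libraries may be technical.

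Genes were described in 27 pathway and 10 marker lists. The members and lists were chosen with earlier results of these data known. Named were the 12 called genes with the largest difference each way (predicted genes left out), up to 4 called members and 2 nearest level per list, a fixed set of macrophage and lipid mediator genes, markers, and the 8 genes nearest to and farthest from the closest group among those that differ between muscle groups. Others were chosen after their values were seen: Cdc20 and Cdk1 for their promoter motifs, and Top2a, Irf7, Rsad2, Isg15, Fosl1, Myc, Tnf, Ccl2 and the remaining list members outside these limits. Alternatives changed the level minimum, the genes ranked, the scale, the call and the columns used. Not analysed here were blood monocytes and Ly6Chigh cells of day 1.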

Additional observations from a re-analysis of the deposited data

How the results depend on the processing

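No paired analysis was possible because the muscle columns are group means and no test was made. The counts of genes called higher and lower in cultured cells were 1507 and 1601 at a threshold of 15 points and 397 and 278 at 40 points. They were 208 and 44 when ranks were taken among all 38087 genes listed, a scale on which the many genes near 0 compress every difference by construction, and 1 list median then passed 25 points in place of 12. That setting put 82.5% of calls on the higher side. Centred log2 differences gave 965 and 565 genes with a pseudocount of 10 and 1128 and 607 with 1. Without 1 BMDM library at a time the counts ranged from 774 to 825 and from 685 to 744, and 11 to 12 list medians passed 25 points. Without 1 muscle column at a time they ranged from 788 to 863 and from 645 (without Ly6Chigh day 4) to 822 (without Ly6Clow day 2), and 9 to 13 list medians passed, in the same 2 settings. With the RvD2-treated libraries, tried after seeing the data, they were 760 and 675, of which 723 and 626 were the same genes.

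Ly6Clow day 2 was the closest group under all 16 alternatives tried. Of these, ranking among all genes listed keeps the order of the compared genes, so it could not change rho. The share of genes nearest is the one given above. The lead of Ly6Clow day 2 in rho over the next group was 0.0459, and 0.0443 to 0.0477 without 1 library at a time. It was 0.0234 at a minimum of 10 counts, 0.0755 at a minimum of 200, 0.081 over genes 2-fold apart among muscle groups and 0.0414 with RvD2-treated libraries. Over genes at 50 or more in all 7 columns, added after seeing the data, it was 0.0592. By other measures the lead was 1.14 points of median absolute rank difference, 0.0322 in Pearson's r, and 12.1 percentage points of genes nearest. Of 112 named genes that were called, 69 lost the call with ranks among all genes. At a minimum of 200, 109 of them were still ranked and 6 of these lost it, and in each other setting 0 to 6 of 112 did. The monocyte median was -24.1 without the Ly6Chigh day 4 column and the immediate early median -21.4 at a minimum of 10.

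The muscle side has no replicate error. Calls rest on the size of the rank difference and on the ranges of the 3 BMDM libraries and 4 muscle group means, and the spread within a muscle group is not part of them. Near the minimum level a few reads move a rank.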
